A study of Mus musculus with 62 samples.

Results

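The genes described here encode potassium channels and their partner subunits. They are the 60 genes, of 11121 with counts, whose symbol begins with Kcn, and all 60 are annotated as protein-coding. Prefrontal cortex (PFC) and ventral striatal tissue of the nucleus accumbens (NAc) were taken from male wild-type C57BL/6j mice aged 15 weeks, and their RNA was sequenced by BRB-seq, a method that reads the 3′ ends of transcripts and labels each sample with a barcode before all samples are pooled. Mice of the mCRS groups had gone through multimodal chronic restraint stress, and CTR mice had not been stressed. For the PFC each treatment group held 15 libraries and for the NAc each held 16, all from bulk tissue that mixes neurons with glia and vessels. The comparisons ask where in the brain the channel genes differ between the PFC and the NAc, and whether mCRS moves them in either region.

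Potassium channels let potassium leave the cell, which repolarizes the membrane after a spike and holds it near rest in between. Voltage-gated channels open on depolarization, calcium-activated ones also on calcium entry, inward rectifiers pass current best near the resting potential and can be opened by G proteins, and K2P channels give a leak. Silent modifier subunits and cytoplasmic or membrane auxiliaries assemble with the pore and set its gating, place or number. In the brain the mix of subunits in a neuron shapes its firing threshold, spike width and firing rate.

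The 60 genes fell by symbol into 5 Kcna, 2 Kcnb, 4 Kcnc and 3 Kcnd genes of voltage-gated channels, 6 silent modifiers (Kcnf1, Kcng1, Kcng2, Kcns1, Kcns2 and Kcnv1), 5 Kcnh and 3 Kcnq genes, 3 Kcnab and 4 Kcnip cytoplasmic auxiliaries, 1 Kcne gene, 2 Kcnm, 3 Kcnn and 2 Kcnt genes of calcium- or sodium-activated channels, 10 Kcnj inward rectifiers and 7 Kcnk genes of K2P channels. In the median library they took 0.454% of counts in CTR and 0.407% in mCRS mice for the PFC, and 0.422% and 0.415% for the NAc. Of their values 12.9% were 0, and the median library lacked counts for 6 members (CTR) or 9 members (mCRS) in the PFC and for 5.5 or 6 members in the NAc. Levels below are in CPM, counts scaled to library size after TMM normalization, and since 3′ counts do not compare between genes, each level is set only against the same gene in another group.

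Library totals lay between 945286 and 4857359 counts, and 1 NAc CTR library went against its label. In replicate 7 of NAc CTR the 12 markers of striatal projection neurons summed to 585 CPM, against a group median of 5590, and Drd1, the dopamine receptor of the direct pathway, was at 0.406 CPM where the other NAc CTR libraries held 63.6 to 251 CPM. The hypothalamic peptide genes Oxt and Avp stood at 1455 and 914 CPM there, with at most 297 and 354 CPM in the other libraries of the group. These transcripts were not confined to that library. Oxt medians were 92.7 CPM in NAc CTR and 82.0 CPM in NAc mCRS, and Avp medians 79.6 and 217 CPM. In PFC CTR and PFC mCRS the medians were 0 and 0.537 CPM for Oxt and 0 and 0.699 CPM for Avp. In replicate 10 of NAc mCRS the choroid plexus gene Ttr reached 21442 CPM, with at most 61.0 CPM in the other 15. Counts of called Kcn and related genes between the regions are given with and without these libraries. Counts of cell type markers are given only with them.

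Between PFC and NAc of unstressed mice, 52 of the 60 Kcn genes passed the filter on low counts. Of these, 8 were higher in the PFC at a Benjamini-Hochberg FDR below 0.05 and 0 were lower (edgeR's quasi-likelihood test), when 4.23% of all 9932 genes tested were called higher and 2.09% lower. At an unadjusted p below 0.05 there were 9 higher and 6 lower members, beside 8.79% and 6.22% of all genes. Without NAc CTR 7 the count was 7 higher and 2 lower, beside 4.2% and 2.16% of all genes: 1 gene was no longer called higher, and Kcnab1 and Kcnd3 were called lower in the PFC. The members' median log2 fold change was 0.21, and that of all genes tested was -0.02.

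The regions also differ in their cells, and many markers of cell types were called between the same 2 groups. Of 12 striatal projection neuron markers 11 were called lower in PFC CTR than in NAc CTR, and of 10 markers of cortical excitatory neurons 8 were called higher. The excitatory markers summed to 2402 to 3203 CPM in PFC CTR and to 195 to 882 CPM in NAc CTR, with no overlap. The striatal markers summed to 508 to 1704 CPM in PFC CTR and to 585 to 9179 CPM in NAc CTR, and the 585 CPM are those of NAc CTR 7. Of 8 oligodendrocyte markers 6 were lower in the PFC, of 9 interneuron markers 2 were higher and 3 lower, and of 8 astrocyte markers 1 was lower. The interneuron list shares Tac1 with the striatal list and also holds Gad1 and Gad2, so its counts are not of interneurons alone. Its summed level had medians of 1392 CPM in PFC CTR and 2390 CPM in NAc CTR. Of 8 microglial and 8 endothelial and mural markers 0 were called. Of 4 hypothalamic markers tested 3 were lower in the PFC. In bulk tissue, fewer cells of a type and less of a transcript per cell cannot be told apart, and the part of cell makeup in the channel differences was not tested.

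**Figure D1:**
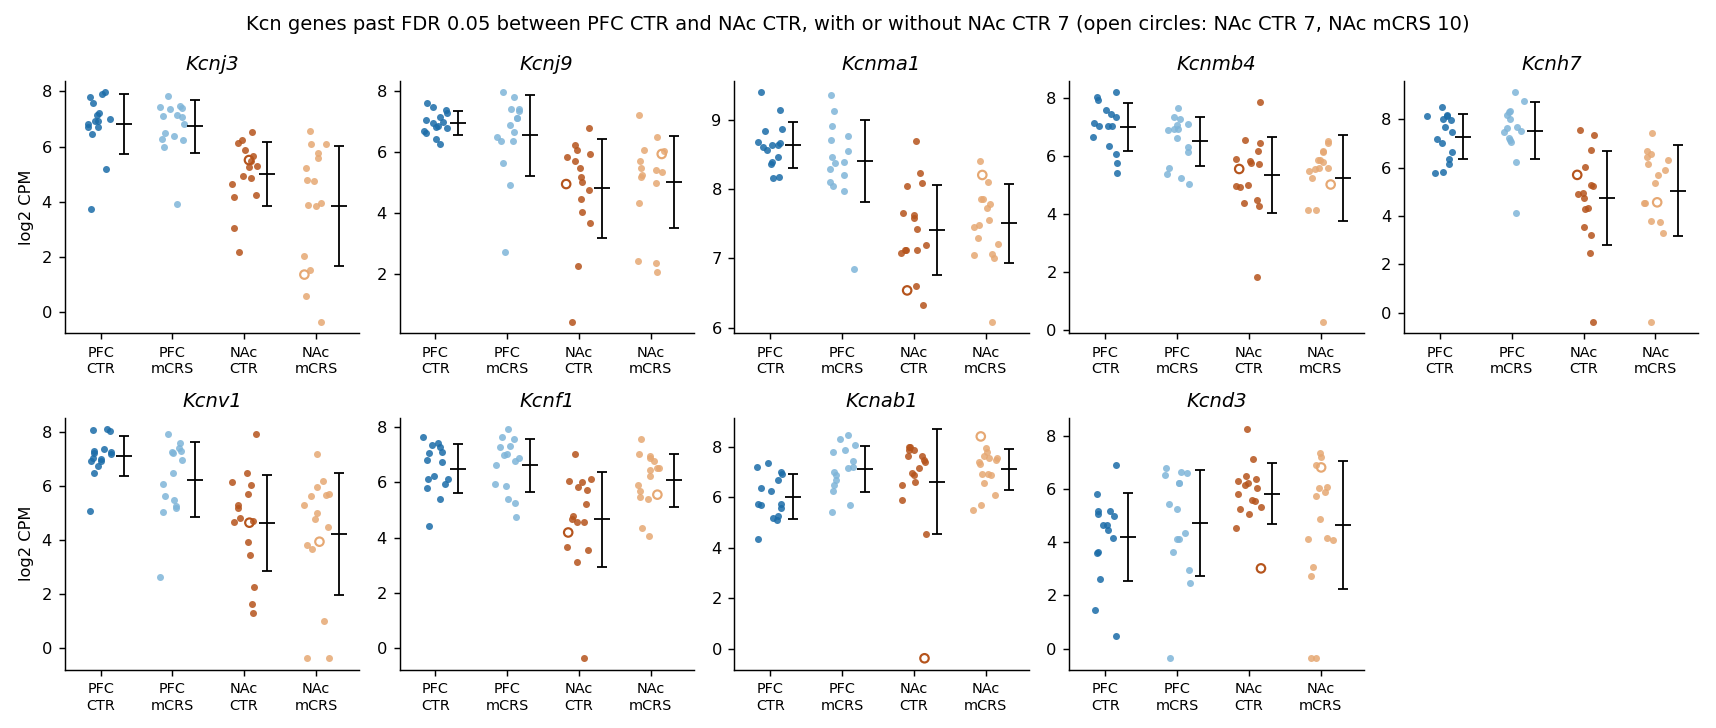
Levels of 9 Kcn genes in each of the 62 libraries, as log2 CPM on the vertical axis, for the 4 groups on the horizontal axis. Bars give the mean ± SD, and open circles mark NAc CTR 7 and NAc mCRS 10. In the first 7 panels PFC CTR lies above NAc CTR, most clearly for Kcnma1. In the Kcnab1 panel the lone NAc CTR point at the bottom is NAc CTR 7, with 0 counts.

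Both genes of the large-conductance calcium-activated (BK) channel were higher in the PFC. Kcnma1, which encodes the pore-forming subunit (chromosome 14, 23289431 to 24014491, minus strand, GRCm38), ranged from 286 to 670 CPM in PFC CTR with a median of 395, and from 79.6 to 413 CPM in NAc CTR with a median of 159. All 15 PFC libraries exceeded the NAc median, and 14 of the 16 NAc libraries lay below the lowest PFC library. The log2 fold change was 1.13 (SE 0.19, adjusted p = 1.58e-05), the smallest adjusted p of the members. Kcnmb4, which encodes the beta subunit typical of neurons that slows BK gating (chromosome 10, 116417861 to 116473878, minus strand), ranged from 42.2 to 294 CPM in PFC CTR (median 132) and from 2.79 to 231 CPM in NAc CTR (median 49.0). Here the groups overlapped more, with 3 PFC libraries above the highest NAc library, and the log2 fold change was 1.38 (SE 0.35, adjusted p = 0.00564).

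Among the inward rectifiers, 2 of the 7 Kcnj genes tested were called, and both encode subunits of channels opened by G protein-coupled receptors. Kcnj3 (chromosome 2, 55435970 to 55598145, plus strand), the subunit shared by most such channels of the forebrain, had 12.5 to 249 CPM in PFC CTR (median 122) and 3.66 to 91.2 CPM in NAc CTR (median 37.6). Its log2 fold change was 1.76 (SE 0.35, adjusted p = 0.000387), and 12 of 15 PFC libraries stood above every NAc CTR library. Kcnj9 (chromosome 1, 172320501 to 172329318, minus strand), a partner of Kcnj3 in such channels, had 76.9 to 198 CPM in PFC CTR (median 122) and 0.56 to 111 CPM in NAc CTR (median 33.5), a log2 fold change of 1.67 (SE 0.36, adjusted p = 0.00093). The PFC values were tight and the NAc values spread widely: 15 of 16 NAc libraries were below the lowest PFC library. The other partner, Kcnj6, was at 0 counts in 7 of 15 PFC CTR and 11 of 16 NAc CTR libraries. Its medians were 0.948 CPM in PFC CTR and 0 in NAc CTR, and it was not tested.

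The remaining 5 Kcnj genes tested did not pass, among them the glial channel gene Kcnj10, which lies next to Kcnj9 on chromosome 1 (172341210 to 172374085, plus strand). Kcnj10, known for potassium uptake by astrocytes and oligodendrocytes, had a log2 fold change of -0.61 (SE 0.26, adjusted p = 0.208), with medians of 85.7 CPM in PFC CTR and 118 CPM in NAc CTR. Kcnj4, a strong inward rectifier and the Kcnj gene with the most counts, was at -0.17 (SE 0.26, adjusted p = 0.89).

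Of the Kcnh genes, whose channels activate or recover slowly and set excitability near threshold, Kcnh7 (chromosome 2, 62693414 to 63184287, minus strand) was called and the other 3 tested were not. Kcnh7, a brain member of the ERG group, ranged from 54.7 to 364 CPM in PFC CTR (median 179) and from 0 to 190 CPM in NAc CTR (median 29.7). At a log2 fold change of 1.87 (SE 0.42, adjusted p = 0.0015) this was the largest difference among the called members. All 15 PFC libraries exceeded the NAc median, and 12 NAc libraries lay below the lowest PFC library. Kcnh1, Kcnh2 and Kcnh3 had log2 fold changes between -0.67 and 0.56.

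The silent modifiers, which form no channel alone and alter Kcnb channels when they join them, gave 2 calls of 5 tested. Kcnv1 (chromosome 15, 45106284 to 45114920, minus strand) had 33.0 to 276 CPM in PFC CTR (median 147) and 1.67 to 245 CPM in NAc CTR (median 26.6), a log2 fold change of 1.77 (SE 0.41, adjusted p = 0.00228). Kcnf1 (chromosome 12, 17172100 to 17176888, minus strand) had 20.9 to 200 CPM in PFC CTR (median 107) and 0 to 130 CPM in NAc CTR (median 25.8), a log2 fold change of 1.42 (SE 0.41, adjusted p = 0.0207). For both genes some NAc libraries reached the PFC range, while 15 of 15 PFC libraries for Kcnv1 and 14 for Kcnf1 stood above the NAc median. Kcns1, a further modifier that the filter removed, had medians of 8.5 CPM in PFC CTR and 0 in NAc CTR and was at 0 counts in 10 of 16 NAc CTR libraries.

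Kcnb2, which encodes a pore subunit of the delayed rectifier channels that these modifiers join, was at 0.39 (SE 0.34, adjusted p = 0.732). The 7 called genes described above, from Kcnma1 to Kcnf1, stayed called in all 31 fits that left out 1 library.

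**Figure D2:**
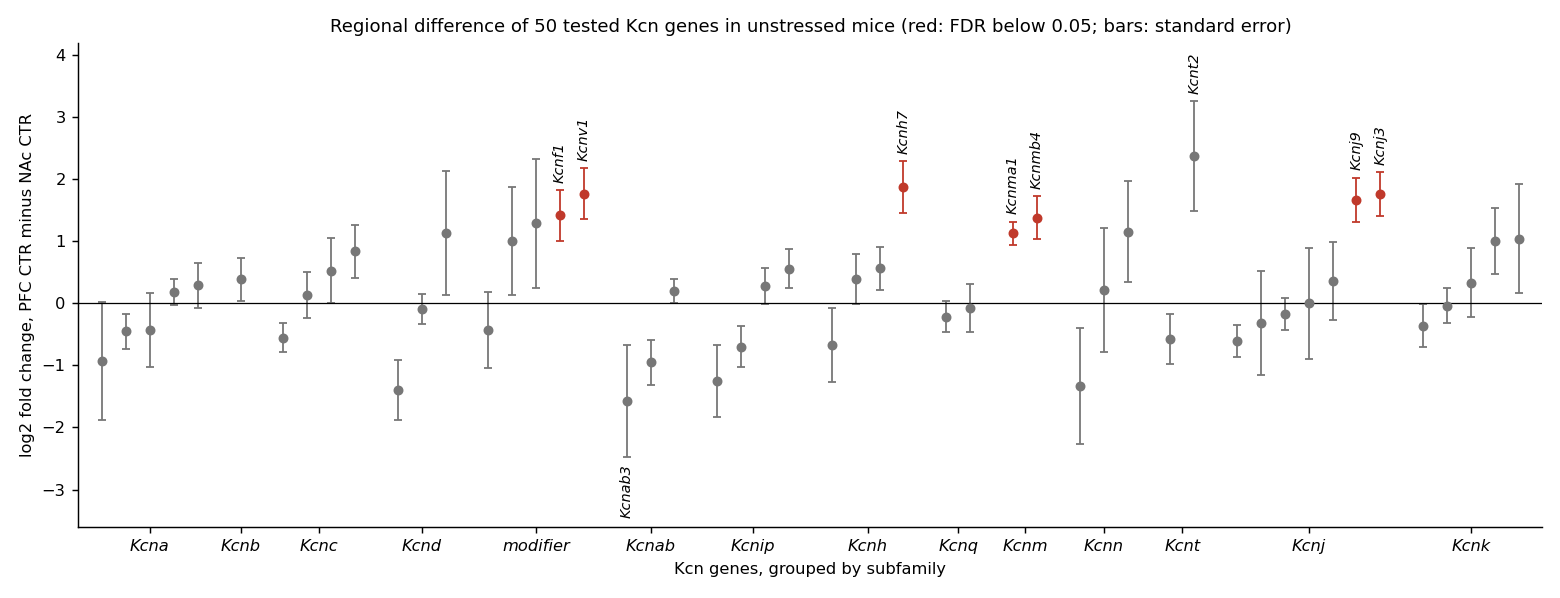
The log2 fold change between PFC CTR and NAc CTR on the vertical axis for 50 of the 52 tested Kcn genes, grouped by subfamily on the horizontal axis, with standard errors as bars and genes at an FDR below 0.05 in red. Values run from -1.57 for Kcnab3 to 2.37 for Kcnt2, and all 7 red points lie above 0.

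The 6 members with lower values in the PFC at an unadjusted p below 0.05 were Kcnd3, Kcnab1, Kcnip1, Kcnip2, Kcnc1 and Kcnj10. Kcnd3, a pore gene of the fast inactivating A-type current, had 0.611 to 119 CPM in PFC CTR (median 24.5) and 7.32 to 304 CPM in NAc CTR (median 60.6), at -1.40 (SE 0.48, adjusted p = 0.0735). Without NAc CTR 7 it was called, at -1.47 (SE 0.47, adjusted p = 0.047). It was also called without PFC CTR 3, which held 32.4% of all Kcnd3 counts of its group, at -1.76 (adjusted p = 0.016). These were 2 of the 31 fits that left out 1 library, over which values ran from -1.76 to -1.05 and adjusted p from 0.016 to 0.277. In mCRS mice the 2 Kcnd genes tested lay between -0.21 and -0.14, with adjusted p of 0.918 or more. The Kcnd3 medians there were 37.6 CPM in PFC mCRS and 40.3 CPM in NAc mCRS.

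Kcnab1, whose product joins Kcna channels and can give them fast inactivation, had 19.8 to 161 CPM in PFC CTR (median 52.0) and 0 to 254 CPM in NAc CTR (median 153). The single 0 was NAc CTR 7, and the other 15 libraries held 22.3 to 254 CPM. With that library the log2 fold change was -0.95 (SE 0.37, adjusted p = 0.138), and without it -1.04 (SE 0.30, adjusted p = 0.0197). In 14 of 15 PFC CTR libraries Kcnab1 lay below the NAc CTR median.

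Kcnip1 and Kcnip2, calcium-binding auxiliaries of Kcnd channels, were at -1.25 (SE 0.58, adjusted p = 0.272) and -0.70 (SE 0.32, adjusted p = 0.275). Their relatives Kcnip3 and Kcnip4 had positive values of 0.56 and 0.29, so the 4 Kcnip genes did not share a sign. Kcnd2, the other main A-type pore gene, was at -0.08 (SE 0.24, adjusted p = 0.955), and its sign turned, to 0.01, when NAc CTR 3 was left out. Kcnc1, whose channels let fast-spiking neurons repolarize quickly, was at -0.55 (SE 0.24, adjusted p = 0.201).

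Several whole subfamilies gave no call between the unstressed regions. The 3 Kcnq genes of the M-current, which damps repetitive firing, had log2 fold changes between -0.21 and -0.08. The 5 Kcna genes lay between -0.93 and 0.29, with Kcna2, a low-threshold channel gene of axons, at 0.18 (SE 0.21, adjusted p = 0.838). The 5 Kcnk genes tested lay between -0.36 and 1.04, the 3 Kcnn genes of small-conductance channels between -1.33 and 1.15, each with an adjusted p of 0.38 or more. Of the 2 sodium-activated channel genes, Kcnt1 was at -0.57 (SE 0.41) and Kcnt2 at 2.37 (SE 0.89, adjusted p = 0.116), with 0 counts of Kcnt2 in 6 of 16 NAc CTR libraries.

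The same regional question can be put to the mCRS mice, whose libraries are separate from those of CTR mice. There 50 Kcn genes were tested, and 6 were called higher in the PFC and 2 lower, when 4.23% and 2.07% of all 9452 genes were called. Of the 8 genes called in unstressed mice, 4 were called again: Kcnh7 at 2.09 (SE 0.40, adjusted p = 0.000178), Kcnma1 at 0.91 (SE 0.20, adjusted p = 0.00108), Kcnj3 at 2.07 (SE 0.49, adjusted p = 0.00311) and Kcnj9 at 1.39 (SE 0.42, adjusted p = 0.0304). These were 50% of either list of 8, while of all genes 371 were called in both, 59.1% of the calls in CTR and 62.2% of those in mCRS mice. All 8 genes had the same sign in both, and of the 49 members tested in both 38 did. The share of all genes with the same sign was not counted, so these sign counts do not set the members apart from other genes.

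The other 4 of the 8 were positive in mCRS mice without passing. Among them, Kcnv1 was at 1.49 (SE 0.53, adjusted p = 0.0849), Kcnmb4 at 1.10 (SE 0.39, adjusted p = 0.0891) and Kcnf1 at 0.55 (SE 0.34, adjusted p = 0.509). A missed threshold does not show that the regional difference was smaller after mCRS.

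**Figure D3:**
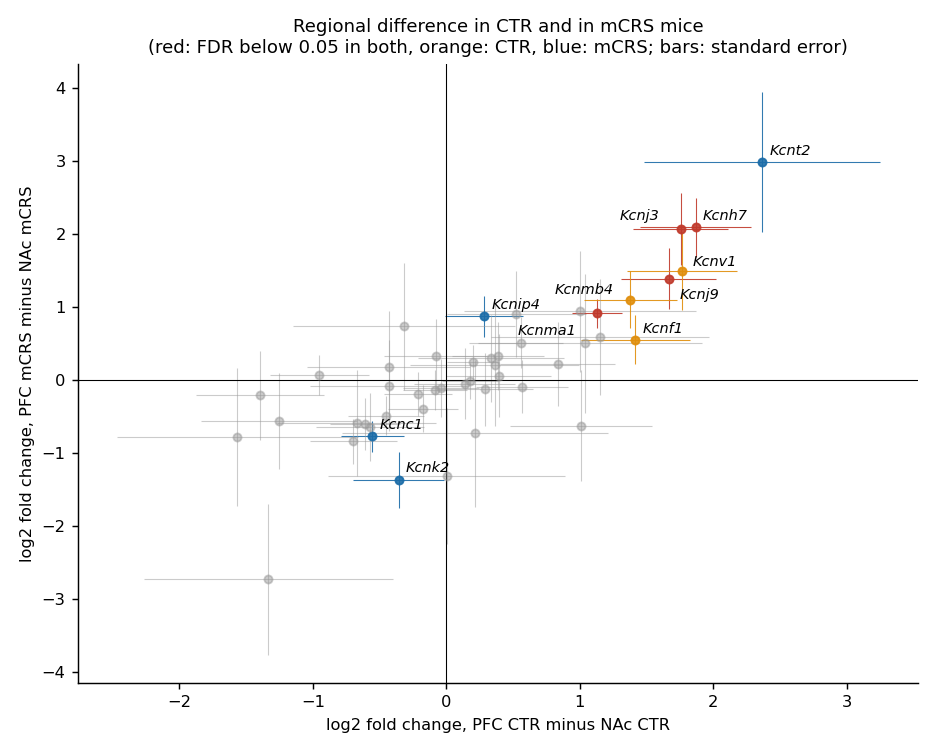
The log2 fold change of PFC over NAc in CTR mice on the horizontal axis and in mCRS mice on the vertical axis, for 47 of the 49 Kcn genes tested in both, with standard errors as bars. Red points were called at an FDR below 0.05 in both, orange ones in CTR and blue ones in mCRS mice alone. The 7 red and orange points all lie in the upper right part, above 0 on both axes.

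A further 4 members were called in mCRS mice alone, of which Kcnt2, Kcnip4 and Kcnk2 were picked for description after their values had been seen. Kcnc1 had 68.5 to 242 CPM in PFC mCRS (median 145) and 128 to 445 CPM in NAc mCRS (median 220), a log2 fold change of -0.77 (SE 0.21, adjusted p = 0.0124). Kcnk2, whose K2P channel opens on stretch and lipids, had 6.96 to 84.0 CPM in PFC mCRS (median 33.5) and 23.4 to 175 CPM in NAc mCRS (median 98.1), a log2 fold change of -1.37 (SE 0.38, adjusted p = 0.0166). Every PFC mCRS library lay below the NAc median of Kcnk2, while in unstressed mice its difference was -0.36 (SE 0.34, adjusted p = 0.764).

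Kcnt2 was at 2.99 (SE 0.96, adjusted p = 0.0457), with medians of 34.9 CPM in PFC mCRS and 1.6 CPM in NAc mCRS. Kcnip4 was at 0.88 (SE 0.28, adjusted p = 0.0459), with medians of 152 and 92.6 CPM. Both calls were lost without NAc mCRS 10, when their adjusted p rose to 0.0597 for Kcnt2 and 0.0686 for Kcnip4, leaving 4 higher and 2 lower, beside 4.13% and 1.99% of all genes. Kcnh7, Kcnma1, Kcnj3, Kcnj9, Kcnc1 and Kcnk2 were called with and without it.

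The RefSeq promoter table used (GRCm38.p6) matched 42 of the 60 members and 6 of the 8 called genes, with no entry for Kcnv1. The 250 bases before the start of Kcnh7 (chr2:63184288-63184537, minus strand), Kcnj3 (chr2:55435720-55435969, plus strand) and Kcnj9 (chr1:172329323-172329572, minus strand) are printed because these 3 genes, with Kcnma1, were called in both comparisons, and they lie within 10 bases of the annotated gene start. Kcnma1 was left out because its RefSeq start lies 10286 bases from that gene start. Capitals mark GC boxes (GGGCGG or its reverse complement) in Kcnh7 and the letters TATAAA in Kcnj9.
Kcnh7: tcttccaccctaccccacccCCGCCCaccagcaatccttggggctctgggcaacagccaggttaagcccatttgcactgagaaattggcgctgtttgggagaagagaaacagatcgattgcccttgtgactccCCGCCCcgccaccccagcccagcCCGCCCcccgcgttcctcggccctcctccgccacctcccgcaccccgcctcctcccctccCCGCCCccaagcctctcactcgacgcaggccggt
Kcnj3: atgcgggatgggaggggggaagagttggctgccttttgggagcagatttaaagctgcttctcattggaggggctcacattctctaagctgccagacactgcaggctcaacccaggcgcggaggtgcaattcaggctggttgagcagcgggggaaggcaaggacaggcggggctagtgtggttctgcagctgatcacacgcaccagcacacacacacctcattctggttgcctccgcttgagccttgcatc
Kcnj9: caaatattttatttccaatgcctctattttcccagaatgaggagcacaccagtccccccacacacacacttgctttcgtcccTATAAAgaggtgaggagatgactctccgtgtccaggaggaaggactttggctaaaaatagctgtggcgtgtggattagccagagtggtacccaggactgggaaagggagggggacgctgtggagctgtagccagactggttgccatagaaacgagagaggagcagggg

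The 3 promoters differed in these motifs although the genes shared their regional direction. Kcnh7 held 4 GC boxes, Kcnj9 held 1 match to the letters TATAAA, at 168 bases before the start, and Kcnj3 held none of the motifs searched. Both strands were searched for GGGCGG, found in 33.0% of all 27025 RefSeq promoters of this length, for the E-box CACGTG (6.04%), for the cyclic AMP response element TGACGTCA (1.60%), for TATAAA (13%) and for the core of the RE1 element (0.0222%). Of the 6 called genes with a promoter 3 held a GC box, and of the other 36 members 18 did. With 70% of members matched, a comparison over the whole family is void, and these matches describe letters and no binding.

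Genes that act on or with potassium channels were taken from a list of 56, of which 52 had counts. Between PFC CTR and NAc CTR 7 of 52 tested were called higher and 1 lower, beside 4.23% and 2.09% of all genes, and without NAc CTR 7 the count was 6 and 1, with Gng3 no longer called. The largest difference was that of Stx1a, a syntaxin that also binds Kcnb channels, at 2.52 (SE 0.26). The calmodulin genes Calm2 and Calm3, whose product is the calcium sensor of Kcnn and Kcnq channels, were at 0.81 (SE 0.12) and 0.62 (SE 0.12), and the G protein genes Gnai1 and Gng3, which act on Kcnj3 and Kcnj9 channels, at 0.84 (SE 0.20) and 0.48 (SE 0.15). The Kcnd partners Dpp10 and Dpp6 went opposite ways, at 0.85 (SE 0.25, adjusted p = 0.0263) and -0.85 (SE 0.25, adjusted p = 0.0287). In mCRS mice 8 of 49 tested were called higher and 4 lower, beside 4.23% and 2.07% of all genes, and 8 and 5 without NAc mCRS 10. Stx1a, Calm2, Calm3, Gng3 and Dpp10 were among those higher in both, and Gnai1 was not among the genes called in mCRS mice. The 4 lower genes were Akap5, Cntnap2 and the G protein genes Gnai2 and Gnb2. Gnai2 was at -0.68 (SE 0.17, adjusted p = 0.00648) and Gnb2 at -0.58 (SE 0.17, adjusted p = 0.0248).

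In the PFC, mCRS called 0 of 48 Kcn genes tested at an FDR below 0.05 with edgeR, and DESeq2 also called 0. Of all 8916 genes 0% were called. At an unadjusted p below 0.05 there were 2 members with higher and 2 with lower values after mCRS by either tool. Of all genes edgeR gave 2.12% and 1.38%, and DESeq2 gave 259 and 180 of 8916. The members' median log2 fold change was -0.09, that of all genes -0.01. No difference after mCRS in the PFC passed the correction over all genes.

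Kcnab1 had the smallest p. It ranged from 19.8 to 161 CPM in PFC CTR (median 52.0) and from 42.1 to 348 CPM in PFC mCRS (median 140), and 13 of 15 mCRS libraries exceeded the CTR median. The log2 fold change was 1.12 (SE 0.32, unadjusted p = 0.000906, adjusted p = 0.575), the 14th smallest p of the genes tested in the PFC, and the unadjusted p stayed below 0.05 in all 30 fits that left out 1 library. Kcnip4, an auxiliary of Kcnd channels, had 35.7 to 205 CPM in PFC CTR (median 120) and 74.1 to 319 CPM in PFC mCRS (median 152), at 0.62 (SE 0.27, unadjusted p = 0.0256, adjusted p = 0.9997).

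The 2 members with lower values at an unadjusted p below 0.05 were K2P genes, and 0 of the 5 Kcnk genes tested passed the FDR. Kcnk3, which encodes a leak channel closed by acid and by many transmitters, had 0.553 to 142 CPM in PFC CTR (median 44.0) and 0 to 38.0 CPM in PFC mCRS (median 12.8), at -1.76 (SE 0.64, unadjusted p = 0.00784, adjusted p = 0.947). Kcnk2 had 2.44 to 158 CPM in PFC CTR (median 93.8) and 6.96 to 84.0 CPM in PFC mCRS (median 33.5), at -1.13 (SE 0.45, unadjusted p = 0.0142, adjusted p = 0.9997). For both genes all 15 mCRS libraries lay below the CTR median, while the lowest CTR libraries lay within or below the mCRS range. The other 3 Kcnk genes, Kcnk1, Kcnk9 and Kcnk12, lay between -0.50 and -0.15, each within its standard error of 0, and Kcnk9 turned positive without PFC CTR 5 (0.30) or PFC CTR 8 (0.02).

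The share of genes detected was also lower after mCRS, 87.1% ± 4.42 (SD, n = 15) of the 11121 genes in PFC CTR against 82.3% ± 6.22 (SD, n = 15) in PFC mCRS. With that share as a covariate, Kcnab1 was at 1.22 (SE 0.35, unadjusted p = 0.000896), Kcnip4 at 0.60 (SE 0.29, unadjusted p = 0.0474) and Kcnk2 at -1.18 (SE 0.50, unadjusted p = 0.0211). Kcnk3 moved from -1.76 to -1.25 (SE 0.74, unadjusted p = 0.0964) and no longer had a p below 0.05. Of the cell type markers 0 passed the FDR in the PFC after mCRS. At an unadjusted p below 0.05, 1 of 11 striatal, 1 of 8 interneuron and 1 of 8 microglial markers tested had higher values and 1 of 8 astrocyte and 1 of 6 endothelial and mural markers lower ones, and their part in the channel values was not tested.

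**Figure D4:**
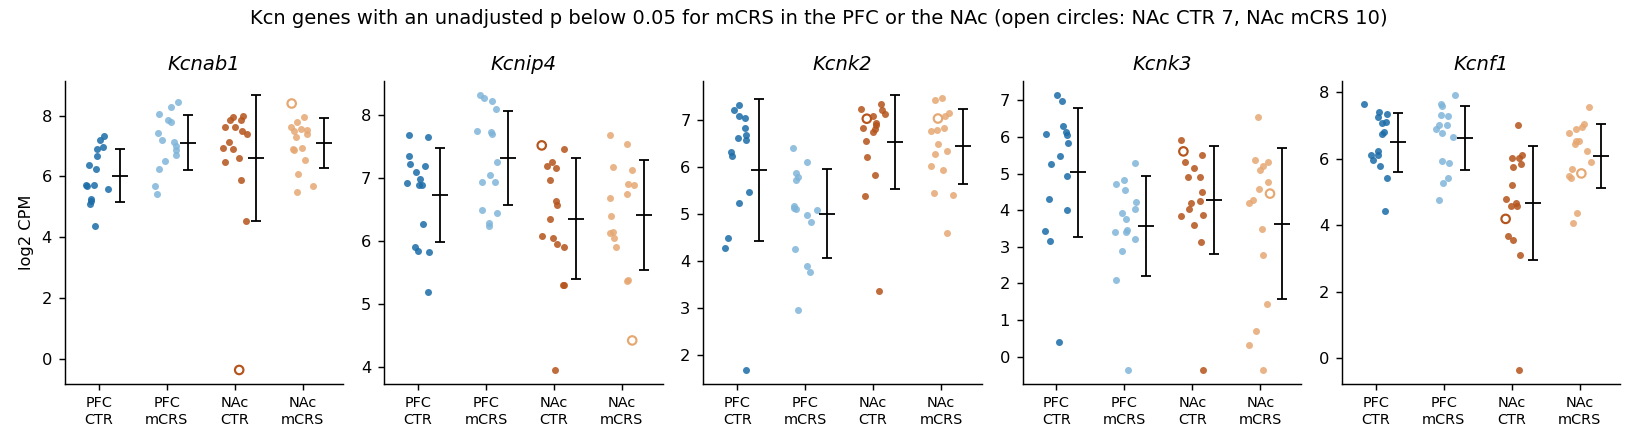
Levels of the 5 Kcn genes with an unadjusted p below 0.05 for mCRS in 1 of the regions, as log2 CPM on the vertical axis, in each library of the 4 groups on the horizontal axis, with mean ± SD as bars and open circles for NAc CTR 7 and NAc mCRS 10. In the PFC, Kcnab1 and Kcnip4 lie higher and Kcnk2 and Kcnk3 lower after mCRS, with overlap in every panel, and in the NAc Kcnf1 lies higher.

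In the NAc, mCRS called 0 of 53 Kcn genes tested with edgeR and 0 with DESeq2. Of all 10141 genes edgeR called 0.00986%, which is Ttr alone, and 0 genes without NAc mCRS 10, and DESeq2 called 0. At an unadjusted p below 0.05 edgeR gave 1 member with a higher and 0 with a lower value, beside 0.986% and 1.06% of all genes. DESeq2 gave 2 and 0, beside 166 and 172 of all 10141 genes. The 1 member was Kcnf1, with 0 to 130 CPM in NAc CTR (median 25.8) and 16 to 188 CPM in NAc mCRS (median 80.3), at 1.05 (SE 0.42, unadjusted p = 0.0143, adjusted p = 0.99995). In 14 of 16 mCRS libraries it exceeded the CTR median, and its p stayed below 0.05 in all 32 fits that left out 1 library, at 0.0192 without NAc CTR 7 and 0.0116 without NAc mCRS 10.

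Next in order of p were Kcnn2, of the small-conductance calcium-activated channels, at 1.35 (SE 0.81, unadjusted p = 0.1), the inward rectifier genes Kcnj12 at -1.22 (SE 0.86) and Kcnj16 at 1.01 (SE 0.82), and the Kcna auxiliary Kcnab2 at -0.26 (SE 0.21). In NAc CTR 7 Kcnj16 was at 76.0 CPM, against 0 to 30.6 CPM in the other 15 libraries of that group. Its log2 fold change ran from 0.84 to 1.62 over the 32 fits that left out 1 library. All 3 Kcnn genes had positive values, between 0.54 and 1.35, with standard errors of 0.75 to 0.95. Kcnab1, Kcnip4, Kcnk2 and Kcnk3, the genes of smallest p in the PFC, had NAc values of 0.08 (SE 0.33), 0.03 (SE 0.30), -0.12 (SE 0.28) and -0.13 (SE 0.63).

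**Figure D5:**
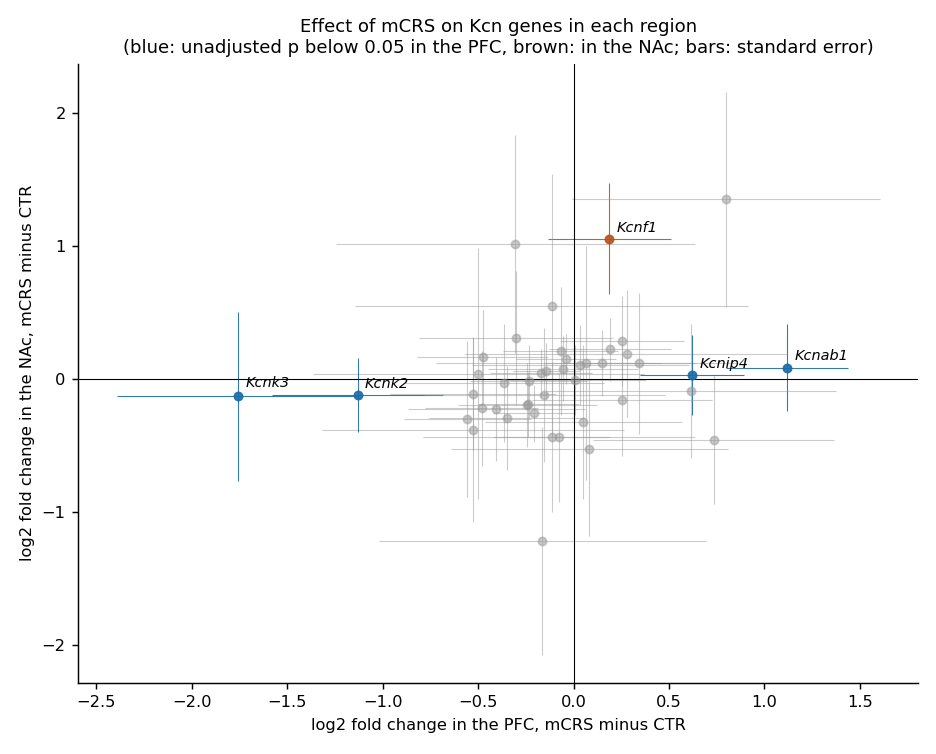
The log2 fold change after mCRS in the PFC on the horizontal axis and in the NAc on the vertical axis for Kcn genes tested in both regions, with standard errors as bars. Blue points had an unadjusted p below 0.05 in the PFC, the brown point in the NAc. The blue points spread along the horizontal axis, from -1.76 for Kcnk3 to 1.12 for Kcnab1, and lie near 0 on the vertical one.

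Whether mCRS acted differently in the regions was tested as an interaction over all 62 libraries, in which 59 Kcn genes were tested and 0 passed an FDR of 0.05 by edgeR or DESeq2, beside 0.00907% of all 11025 genes. The sign is that of the PFC effect minus the NAc effect. At an unadjusted p below 0.05 there were Kcnab1 at 1.02 (SE 0.47, unadjusted p = 0.0336) and Kcnk2 at -1.01 (SE 0.50, unadjusted p = 0.0442), beside 1.45% of all genes positive and 1.64% negative, and Kcnk3 followed at -1.63 (SE 0.87, unadjusted p = 0.0643). Of the 10 markers of cortical excitatory neurons 0 passed the FDR for the interaction, 3 were negative at an unadjusted p below 0.05, and their median was -0.45. Their part in the channel values was not tested. Without NAc CTR 7 the p was 0.00879 for Kcnab1 and 0.0403 for Kcnk2, and without NAc mCRS 10 it was 0.019 and 0.0543. The regional and stress values of a gene share libraries: Kcnab1 was low in PFC CTR against both NAc CTR and PFC mCRS, and its regional value in mCRS mice was 0.07 (SE 0.28). Kcnf1, the gene of smallest p in the NAc, was at -0.87 (SE 0.53, unadjusted p = 0.102).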

How the data were processed

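BRB-seq libraries of mouse PFC and NAc were analysed from the raw counts per gene that the authors deposited. The authors mapped reads with STAR to GRCm38 (mm10) and counted uniquely mapped reads with htseq, version 0.9.1 in the submitters' processing notes, and left out PFC samples of poor quality. Identifiers were matched to symbols through GENCODE, whose GRCm38 coordinates are given (11120 of 11121 matched). Reads were counted without molecular identifiers, so counting error understates technical error. Which PFC and NAc libraries come from the same mouse is not given in the sources used here, so libraries were taken as independent.

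Each contrast was fitted in R 4.3.3 by the quasi-likelihood test of edgeR 4.0.16 after TMM scaling and filterByExpr by group, and p values were adjusted by Benjamini-Hochberg over all genes tested. The standard error is the absolute log2 fold change divided by the square root of F, and plotted log2 CPM used a prior count of 2. The interaction used all 62 libraries. Alternatives were DESeq2 1.42.0, RLE size factors, other filters, the replicate block, numbers 1 to 8 against 9 and above as covariate, all libraries in 1 fit, thinning to the smallest total (945286 counts for the CTR regions), library size without mtDNA genes and each library left out for 3 of the contrasts. The share of genes detected as covariate, and the regional mCRS, interaction and related gene fits without single libraries, were added after values had been seen. The test was tried on simulated data.

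The members, the 11 marker lists, the list of 56 related genes and the tests were chosen with earlier results of these data known. Genes named are the called members with the largest differences, up to 12 per direction, the member with most counts of a subfamily, the 5 members of smallest p for mCRS in each region and the 3 for the interaction, and others where a subfamily is described. Of the lists without a result in the report, precursor markers of oligodendrocytes gave 1 of 4 lower, cholinergic markers 1 of 1 tested lower and choroid plexus markers 1 of 3 higher in PFC CTR. Some genes that these rules name are not reported here, and the counts include them. Promoters are those of RefSeq.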

Additional observations from a re-analysis of the deposited data

How the results depend on the processing

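The 8 higher and 0 lower Kcn genes between PFC CTR and NAc CTR became 7 to 9 and 0 to 1 under the alternatives. The 1 was Kcnd3, with DESeq2 at -1.45 and after thinning at -1.51. Over all genes the alternatives gave 377 to 468 higher and 183 to 347 lower. Leaving out each library gave 7 to 9 higher and 0 to 2 lower, beside 389 to 428 and 191 to 219 over all genes. In mCRS mice there were 4 to 7 higher and 1 to 3 lower, beside 318 to 442 and 149 to 331 over all genes. The count was 1 lower under the replicate block and with detection as covariate, and 4 and 2 without NAc mCRS 10. For mCRS in the PFC the counts at an unadjusted p below 0.05 went from 2 and 2 to 1 and 1 under the replicate block (Kcnab1, and Kcnv1 at -0.84). Beside these, 172 and 243 of all 8916 genes were positive and negative. Without a filter 3 members were positive (224 and 218 of 11119 genes). With all libraries in 1 fit there were 3 and 3 (249 and 292 of 11025 genes). With detection as covariate 3 were negative (106 and 78 of 8916 genes). Without single libraries the counts were 1 to 2 and 2 to 4, beside 151 to 208 and 105 to 155 over all genes. In the NAc they went from 1 and 0 to 2 positive with DESeq2, beside 166 and 172 of all 10141 genes. Without a filter 1 was negative (Kcnj6 at -2.70), beside 129 and 135 of 11121 genes. Without single libraries 0 to 1 were negative, beside 90 to 129 over all genes. For the interaction, 1 and 1 became 2 negative with DESeq2 (224 and 218 of all 11025 genes) and 0 and 0 under the replicate block (135 and 229). There were 0 negative with the split of numbers (172 and 185) or detection as covariate (170 and 189). Without NAc mCRS 10 there were also 0 negative (160 and 173 of 11017 genes), against 1 without NAc CTR 7 (153 and 193 of 11020). The cause of these moves was not tested. Signs turned for Kcnd2 (-0.19 without PFC CTR 10 to 0.0073 without NAc CTR 3), for Kcnk1 between PFC CTR and NAc CTR (-0.16 without PFC CTR 1 to 0.12, above 0 in 6 fits: 0.02 without PFC CTR 4, 0.02 without PFC CTR 8, 0.01 without PFC CTR 10, 0.03 without PFC CTR 13, 0.12 without NAc CTR 2 and 0.01 without NAc CTR 4) and in mCRS mice (0.12 without NAc mCRS 10), and for Kcna2 in mCRS mice (0.11 with detection as covariate), each from a value within its SE of 0. Whether library numbers mark the same mouse could not be told, because no known pair shows what a true match would give. Deviations from group means were correlated between same-numbered PFC and NAc libraries. The values were -0.015 to 0.025 in CTR and -0.026 to 0.020 in mCRS mice, with 0 pairs over 0.1. Of 15 pairs, 1 in CTR and 2 in mCRS mice matched best with their own number. For mCRS in a region the replicate block joins a CTR with an mCRS library by number alone, so its counts are no check on pairing. Without a filter Kcns1 was called between CTR regions at 3.82, so members at few counts depend on that choice, and at these depths the 8 untested members allow no statement.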
